A study of Mus musculus with 21 samples.

Results

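The regions described here are places in the mouse genome where 5 of 6 peak lists for subunits of the NuRD complex had a peak in the ganglionic eminences, and the list named CHD4 had none. Peaks of the 6 lists were merged wherever they overlapped by at least 1 bp on chromosomes 1 to 19 and X. A merged region was kept when it held a peak of each of the lists named HDAC1, HDAC2, MBD3, RBBP4 and RBBP7 and no peak of the list named CHD4. Of 38820 merged regions, 1179 met this rule, and they are called 5-list regions below. They are set beside the 1527 merged regions that held a peak of all 6 lists, called 6-list regions. The regions were chosen by peak presence in these lists, so their peak counts and fold enrichments are given as descriptions without a test.

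NuRD, the nucleosome remodelling and deacetylase complex, joins an ATP-dependent chromatin remodeller (CHD4 or a relative) to the histone deacetylases HDAC1 and HDAC2. MBD3 is a methyl-CpG-binding-domain protein of the complex, and RBBP4 and RBBP7 are histone chaperones that also belong to other complexes, among them Polycomb repressive complex PRC2 and SIN3. The complex acts at both active and repressed promoters and enhancers, and it was first described as a repressor. The ganglionic eminences are the embryonic source of GABAergic neurons of the striatum and of cortical interneurons, and the homeodomain factors DLX1 and DLX2 are needed for the differentiation and migration of these neurons.

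The 21 samples all came from CD1 mouse embryos and were labelled basal ganglia. Chromatin accessibility was measured by ATAC-seq at E12.5 in cells without Dlx1 and Dlx2 (genotype Dlx1/2KO) and in WT cells, in 3 embryos per genotype and cell fraction. The fractions were FTneg cells, which the design text places in the subventricular and mantle zones, and FTpos cells of the ventricular zone. For each of the 6 subunits 1 library was made at E13.5 by chromatin immunoprecipitation with sequencing (ChIP-seq), with 3 input libraries and no genotype given in the labels. The labels give the knockout without an allele or a driver, and the ChIP profiles came from older embryos than the accessibility data.

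The names of 3 lists did not match the samples they were deposited with. The HDAC1-named list was attached to the sample labelled CHD4, the HDAC2-named list to the sample labelled HDAC1, and the CHD4-named list to the sample labelled HDAC2. Lists are called here by the name they carry. If the sample labels are the right ones, the list absent from these regions is that of HDAC2 and not of CHD4, and the files used here do not settle which is right. The CHD4-named list was the shortest, with 5517 peaks against 11288 to 29762 in the other 5. The depth of the libraries is unknown, there was 1 list per subunit, and each accessibility list combined the embryos of a genotype and fraction, so no test over samples could be made. Intervals below are Wilson 95% intervals for a share and Newcombe 95% intervals for a difference of shares, and both cover counting error over regions only.

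The promoters of 8 genes whose starts lay inside 5-list regions show what these regions look like as sequence. Each is printed 5′ to 3′ on the strand of its gene from 250 bases before to 50 bases after the start, from RefSeq on GRCm38.p6, the assembly of mm10, and capitals mark CpG dinucleotides, the letters that DNA methylation acts on in mammals. Nrarp (chr2:25180508-25180807, plus strand), Sp9 (chr2:73271676-73271975, plus strand) and Sox1 (chr8:12395269-12395568, plus strand) are shown because they are the 3 genes with a 5-list region at an end that also overlapped chromatin more accessible in Dlx1/2KO cells.
Nrarp: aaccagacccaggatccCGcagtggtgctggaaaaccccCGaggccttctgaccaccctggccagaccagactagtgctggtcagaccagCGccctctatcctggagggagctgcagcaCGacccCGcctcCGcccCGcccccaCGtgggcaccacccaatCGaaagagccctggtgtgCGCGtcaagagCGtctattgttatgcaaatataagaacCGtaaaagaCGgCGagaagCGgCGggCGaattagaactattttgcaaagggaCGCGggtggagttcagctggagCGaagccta
Sp9: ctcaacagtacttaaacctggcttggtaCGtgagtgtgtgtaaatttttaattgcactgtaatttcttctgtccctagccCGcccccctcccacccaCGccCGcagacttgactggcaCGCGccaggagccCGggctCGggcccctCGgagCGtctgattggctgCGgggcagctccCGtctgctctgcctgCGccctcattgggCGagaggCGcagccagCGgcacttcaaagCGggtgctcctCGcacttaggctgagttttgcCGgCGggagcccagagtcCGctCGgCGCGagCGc
Sox1: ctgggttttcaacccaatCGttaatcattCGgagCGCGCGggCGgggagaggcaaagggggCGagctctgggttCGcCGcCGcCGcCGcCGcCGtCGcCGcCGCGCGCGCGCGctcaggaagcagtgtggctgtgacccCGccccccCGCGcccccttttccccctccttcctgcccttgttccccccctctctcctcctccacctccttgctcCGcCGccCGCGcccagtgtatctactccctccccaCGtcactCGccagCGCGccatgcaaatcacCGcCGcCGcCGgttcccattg
Dlx2 (chr2:71546705-71547004, minus strand) is shown because its locus is the one targeted in the knockout, and Helt (chr8:46294622-46294921, minus strand) because its region ranked high in all 5 lists and its promoter held the homeodomain core TAATTA.
Dlx2: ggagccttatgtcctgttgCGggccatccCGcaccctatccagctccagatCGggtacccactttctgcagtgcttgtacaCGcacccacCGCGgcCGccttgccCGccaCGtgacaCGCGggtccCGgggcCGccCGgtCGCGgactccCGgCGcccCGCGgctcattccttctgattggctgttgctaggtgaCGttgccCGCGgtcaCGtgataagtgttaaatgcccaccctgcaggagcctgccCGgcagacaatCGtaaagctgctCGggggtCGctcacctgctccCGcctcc
Helt: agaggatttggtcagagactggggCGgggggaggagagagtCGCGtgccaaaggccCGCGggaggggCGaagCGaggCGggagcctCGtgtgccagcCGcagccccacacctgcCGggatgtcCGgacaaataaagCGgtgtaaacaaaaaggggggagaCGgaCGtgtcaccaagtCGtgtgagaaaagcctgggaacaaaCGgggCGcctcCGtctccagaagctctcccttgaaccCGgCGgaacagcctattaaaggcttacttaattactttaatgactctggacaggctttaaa
Zswim5 (chr4:116877152-116877451, plus strand) had the densest of these 8 windows, with 52 CpG dinucleotides. Zeb2 (chr2:45117393-45117692, minus strand) and Myt1l (chr12:29528134-29528433, plus strand) had 9 and 4, and they show that a promoter poor in CpG could also lie in such a region.
Zswim5: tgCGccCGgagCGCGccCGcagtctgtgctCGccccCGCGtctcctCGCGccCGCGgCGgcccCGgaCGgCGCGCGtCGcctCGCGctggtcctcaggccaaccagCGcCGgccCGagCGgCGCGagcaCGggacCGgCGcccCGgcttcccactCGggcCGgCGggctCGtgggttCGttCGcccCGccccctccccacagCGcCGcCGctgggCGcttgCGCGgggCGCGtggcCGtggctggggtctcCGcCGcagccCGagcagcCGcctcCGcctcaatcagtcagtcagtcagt
Zeb2: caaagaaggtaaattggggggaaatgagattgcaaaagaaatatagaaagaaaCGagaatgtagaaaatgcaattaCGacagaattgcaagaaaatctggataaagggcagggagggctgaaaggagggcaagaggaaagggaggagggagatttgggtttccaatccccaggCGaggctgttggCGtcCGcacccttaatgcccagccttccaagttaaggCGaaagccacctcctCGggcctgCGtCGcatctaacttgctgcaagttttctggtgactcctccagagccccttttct
Myt1l: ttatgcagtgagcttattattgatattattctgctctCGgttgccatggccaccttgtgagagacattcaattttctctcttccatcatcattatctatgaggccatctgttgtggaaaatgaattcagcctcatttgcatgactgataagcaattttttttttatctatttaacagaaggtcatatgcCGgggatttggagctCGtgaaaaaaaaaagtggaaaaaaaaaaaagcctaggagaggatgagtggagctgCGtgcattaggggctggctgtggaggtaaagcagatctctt
The other 5 windows held 29 CpG dinucleotides (Dlx2), 21 (Helt), 21 (Nrarp), 37 (Sox1) and 25 (Sp9).

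The 5-list regions were the most numerous of the classes that lacked 1 list. Beside the 1179 regions without a CHD4-named peak there were 696 without an RBBP7 peak, 372 without an HDAC2-named peak, 78 without an HDAC1-named peak, 63 without an MBD3 peak and 0 without an RBBP4 peak. The order was another with lists of one length. When each list was shortened to its 5517 peaks of highest fold enrichment, 48 regions lacked the CHD4-named list alone, and 247 held all 6. RBBP7 alone was lacking in 213, the HDAC1-named list in 137, MBD3 in 38, the HDAC2-named list in 36 and RBBP4 in 24. Values at the edge of the rule come from different lists on its 2 sides and are not compared. Over the 5 lists that the rule requires, the weakest peak in any 5-list region had a −log10 q of 2.67. Among 6-list regions the weakest CHD4-named peaks had a −log10 q of 2.36 at Dennd4c, 2.53 at Grik3 and 2.53 at Sh3glb1, and 102 of 1527 were below 4, with a median of 7.90.

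Most 5-list regions lay at the ends of genes. Of 1179, 728 (61.7%, interval 58.9 to 64.5) lay no more than 1 kb from the start or the far end of a protein-coding gene in RefSeq, against 624 of 1527 6-list regions (40.9%, 38.4 to 43.3) and 33.7% of all merged regions. The difference between 5-list and 6-list regions was 20.9 percentage points (17.1 to 24.5). A further 248 5-list regions (21.0%) lay inside a gene away from its ends and 203 (17.2%) outside genes, against 442 (28.9%) and 461 (30.2%) of the 6-list regions. By transcription starts in place of gene ends, 683 of the 5-list regions (57.9%) and 612 of the 6-list regions (40.1%) were within 1 kb, a difference of 17.9 points (14.1 to 21.6). Both measures were met by 578 of the 5-list regions, 150 lay at a gene end but not at a listed start, and 105 lay at a start in the promoter table that is not the end of a gene used here. Lying at gene ends was not particular to the absence of the CHD4-named list. Regions that lacked RBBP7 alone were at gene ends in 67.2% of cases (63.7 to 70.6), which was above the 5-list share by more than the counting interval (difference of 5-list regions minus regions without RBBP7 −5.49 points, −9.89 to −0.996). Regions that lacked the HDAC2-named list alone were at gene ends in 19.6% (15.9 to 24.0).

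**Figure D1:**
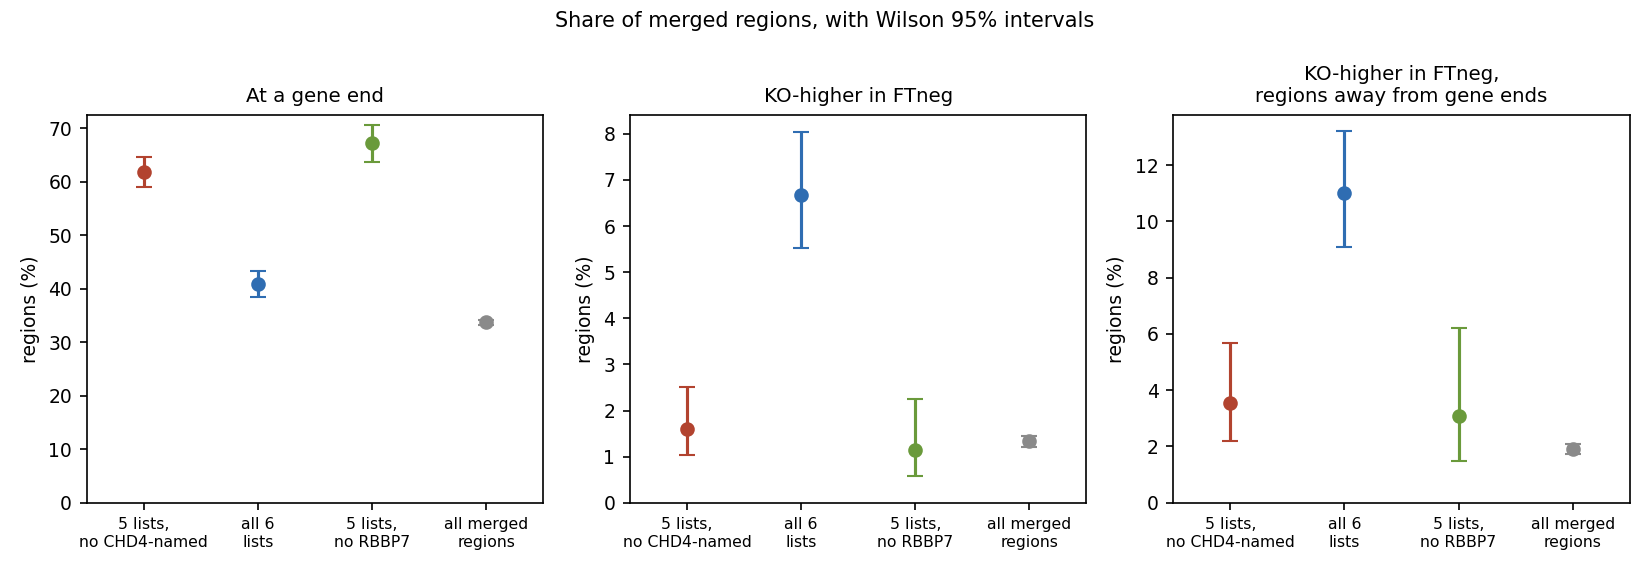
Share of regions, in percent, at a gene end (left), overlapping chromatin more accessible in Dlx1/2KO than WT cells of the FTneg fraction (middle), and overlapping it among regions away from gene ends (right), for 4 sets of merged regions; bars are Wilson 95% intervals over regions. The 5-list regions without a CHD4-named peak were at gene ends in 61.7% and overlapped in 1.61%, against 40.9% and 6.68% of the regions of all 6 lists.

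Few 5-list regions overlapped chromatin whose accessibility differed between Dlx1/2KO and WT cells. In FTneg cells, 19 of 1179 (1.61%, 1.03 to 2.50) overlapped a region more accessible in Dlx1/2KO than in WT cells. Of all merged regions 1.33% did, so the share over all positions together was near the background, and shares by position are given below. Of the 6-list regions, 102 of 1527 (6.68%, 5.53 to 8.04) did. The difference was −5.07 points (−6.55 to −3.62). Regions lacking RBBP7 alone were at 1.15% (0.584 to 2.25), a difference of 0.462 points with an interval that spans 0 (−0.782 to 1.52), and regions lacking the HDAC2-named list alone were at 8.33% (5.93 to 11.6).

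Position at gene ends moved with this overlap, and the difference was also there away from gene ends. Among the 451 5-list regions away from gene ends, 16 (3.55%, 2.2 to 5.68) overlapped chromatin more accessible in Dlx1/2KO, against 99 of 903 6-list regions (11%, 9.09 to 13.2) and 1.91% of all such merged regions. The difference between 5-list and 6-list regions there was −7.42 points (−10.0 to −4.57). The 1.91% of all such merged regions lay below the 5-list interval, so away from gene ends the 5-list share was above the background. At gene ends the overlap was rare in both, with 3 of 728 (0.412%, 0.140 to 1.20) and 3 of 624 (0.481%). Of all merged regions at gene ends 0.199% overlapped, which lay inside the 5-list interval. In the FTpos fraction 0 of 1179 5-list regions overlapped a region more accessible in Dlx1/2KO, against 0.00258% of all merged regions. A count of 0 here allows a share of up to 0.254% by 3 counts and up to 0.325% by the Wilson interval. Chromatin less accessible in Dlx1/2KO than in WT was overlapped by 2 5-list regions in FTneg cells and by 1 in FTpos cells, as 0.0927% and 0.0696% of all merged regions were.

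The signal strength of the peaks moved with class, so the same shares were taken within 4 bins of rising fold enrichment in the MBD3, RBBP4 and RBBP7 lists, each bin cut over both classes together. The share at gene ends was higher in 5-list regions in every bin of these 3 lists, by 18.1 to 27.4 points in bins of MBD3, 10.8 to 26.0 points in bins of RBBP4 and 6.80 to 18.3 points in bins of RBBP7. The share that overlapped chromatin more accessible in Dlx1/2KO was lower in 5-list regions in every bin. The differences ran from −0.390 to −9.87 points, with 1 to 10 such 5-list regions in a bin. No interval was taken within a bin, and the smallest difference rested on 6 of 388 against 6 of 310 regions. The part of peak strength in these differences was not tested. They were small in several bins. They were widest in the strongest bin of RBBP4 peaks, at 1.13% of 5-list and 11% of 6-list regions, and in the strongest bin of RBBP7 peaks, at 4.24% of 5-list and 12.9% of 6-list regions.

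Of the 19 5-list regions that overlapped chromatin more accessible in Dlx1/2KO, 16 lay away from gene ends, 6 of them inside genes. The highest area, the authors' measure of −log10 p summed along the region, was 1994, at chr6:25277499-25278942, which lay 322523 bp from Tmem229a. Its fold enrichments were 6.57 (HDAC1-named), 3.78 (HDAC2-named), 7.67 (MBD3), 9.18 (RBBP4) and 6.28 (RBBP7). Next came a region 1549482 bp from Zeb2, which encodes a zinc finger repressor that directs interneuron fate, with an area of 1940. A region inside Cdc42se2, a small effector of the GTPase CDC42, had an area of 1814. A region 301326 bp from Marcks, a substrate of protein kinase C at the membrane of migrating neurons, had 1626. These 4 regions stood above the other 15, whose areas were 531 to 872.

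Among those 15, a region at chr5:147221042-147225251 was nearest to Gsx1, a homeodomain factor of ventral telencephalic progenitors, at 32866 bp, with an area of 558. This region lay within 1 kb of a start in the promoter table. Its fold enrichments were 7.35 (HDAC1-named), 8.49 (HDAC2-named), 6.95 (MBD3), 8.99 (RBBP4) and 6.09 (RBBP7). A region 20993 bp from St8sia2, which adds polysialic acid to the adhesion molecule NCAM, had an area of 707 and the high RBBP4 and RBBP7 folds of 12 and 12.3. Regions inside Cadm2, an adhesion molecule (area 872), Ptprg, a receptor tyrosine phosphatase (775), Slc6a17, a transporter of synaptic vesicles (668), Tgfbr3, a TGF-β co-receptor (566), and Rab2a, a GTPase of the secretory pathway (538), were away from the ends of these genes. The others were nearest to Sel1l (799), Gramd3 (702), Ap3b1 (681), Zfp169 (604) and Ptprc (578), at distances of 9693 to 571003 bp. Nearest genes are given by position only, and none was tested as a target. The median area over the 19 was 702 (531 to 1994), against 732 (504 to 4771) over the 109 accessibility regions in 6-list regions.

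At the 3 gene ends the more accessible chromatin lay away from the promoters printed above. At Nrarp, which encodes a Notch-induced inhibitor of Notch signalling, the accessible region (area 731) began 1856 bp beyond the start and shared 726 bp with the far end of the gene. At Sp9, a zinc finger factor of striatal projection neurons and interneurons downstream of DLX genes, it (area 651) began 4161 bp from the start and 316 bp beyond the far end. At Sox1, an HMG-box factor of neural progenitors, it (area 531) began 4219 bp from the start and 183 bp beyond the far end. The fold enrichments at Nrarp were 11.3 (HDAC1-named), 5.06 (HDAC2-named), 5.18 (MBD3), 5.42 (RBBP4) and 5.08 (RBBP7). Those at Sp9 were 8.77, 5.32, 4, 8.59 and 5.19 in the same order of lists. Those at Sox1 were 11.1, 4.79, 6.16, 5.80 and 5.95. Folds can be compared within a list only, and in the HDAC1-named list all 3 stood above the median of 6.67 over all 5-list regions. In the HDAC2-named list all 3 stood below the median of 5.60. Nrarp and Sox1 were above and Sp9 below the MBD3 median of 4.71, and the reverse held for the RBBP4 median of 6.67. Sox1 was above and Nrarp and Sp9 below the RBBP7 median of 5.81.

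The 5-list region at Dlx2 was the one at which accessibility was lower in both fractions of Dlx1/2KO cells than in WT cells. This region, at chr2:71536921-71548179, spanned 11259 bp and lay 607 bp from a CHD4-named peak. It overlapped 4 regions more accessible in WT in FTneg cells, the highest with an area of 21511, and 3 in FTpos cells, the highest with an area of 17969. Both reached the far end of Dlx2, 3326 and 3338 bp from its start, from outside the gene. Dlx2 is a targeted gene of the knockout, so deleted DNA and closed chromatin cannot be told apart here. The second region more accessible in WT cells, on chromosome 18 at 145338 bp from Kcnn2, a calcium-activated potassium channel gene, had an area of 1932.

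As a description of the peaks that the rule used, enrichment was lower in 5-list regions than in 6-list regions mainly in 3 lists. The median fold enrichment of the highest peak was 4.71 in 5-list and 5.95 in 6-list regions in the MBD3 list, 6.67 and 7.68 in the RBBP4 list, and 5.81 and 6.77 in the RBBP7 list. It was 6.67 and 6.78 in the HDAC1-named list and 5.60 and 5.83 in the HDAC2-named list. Set against all peaks of the same list, the 5-list median stood at percentile 53.1 in MBD3, 82.7 in RBBP4 and 37.9 in RBBP7, and the 6-list median at 80.4, 90.4 and 60.4. In the HDAC1-named list the medians stood at 65.6 and 67.5, and in the HDAC2-named list at 63.4 and 70.3. The highest single values in 5-list regions were 33.7 (HDAC1-named), 19.7 (HDAC2-named), 30.8 (MBD3), 19.7 (RBBP4) and 32 (RBBP7). Lower enrichment in the MBD3, RBBP4 and RBBP7 lists moved with the absence of a CHD4-named peak, and the part of peak strength in the rule's outcome was not tested.

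**Figure D2:**
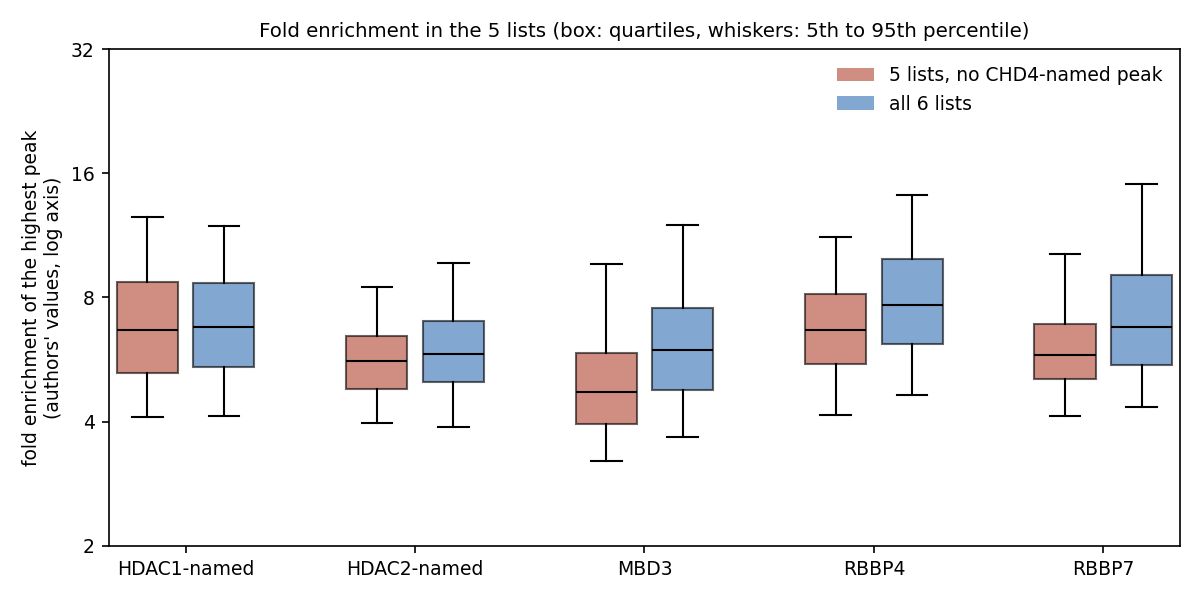
Fold enrichment of the highest peak per region in each of the 5 lists (log axis, authors' values), for regions without a CHD4-named peak (red) and regions of all 6 lists (blue); boxes are quartiles, whiskers the 5th to 95th percentile. The MBD3 boxes stand furthest apart, with medians of 4.71 and 5.95, and the HDAC1-named boxes nearly coincide, with medians of 6.67 and 6.78.

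Over all regions, the peaks of the 5 lists were placed less tightly in 5-list regions than in 6-list regions of about the same median width. Regions were 1538 bp wide at the median in 5-list (407 to 18964) and 1540 bp in 6-list regions (456 to 16323). A base shared by peaks of all 5 lists was present in 950 of 1179 5-list regions (80.6%, 78.2 to 82.7) and in 1408 of 1527 6-list regions (92.2%, 90.8 to 93.4). In the other 229 5-list regions the peaks were joined through overlaps of neighbours, so the 5 lists did not meet at 1 place. The shared stretch was 257 bp at the median in 5-list and 336 bp in 6-list regions. The summits of the highest peaks spread over 474 bp in 5-list and 342 bp in 6-list regions, and 329 (27.9%) and 581 (38%) kept them within 250 bp. At gene ends the spread was 579 and 550 bp, and away from them 316 and 259 bp, so the gap was smaller within each position. In both positions 5-list regions were the narrower, at 1760 against 1910 bp and 1194 against 1394 bp. The part of the gene-end share in the pooled gap was not tested. The closest pairs of summits were RBBP4 with RBBP7 and MBD3 with RBBP4, both at a median of 101 bp in 5-list regions, against 79 and 76 bp in 6-list regions. The RBBP4 and RBBP7 libraries share input 3 per the labels, and the part of the shared input was not tested. The HDAC1-named and RBBP4 summits were the farthest apart at 237 bp in 5-list regions, against 136 bp in 6-list regions.

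Among the widest 5-list regions were those at Bahcc1 and near Polg. The region at Bahcc1, whose product reads trimethylated H3K27, spanned 13214 bp, and 9 RBBP4 and 7 HDAC2-named peaks stood in it. The region of 11863 bp nearest to Polg, at 30049 bp, held Mir9-3 and is described with the microRNAs below.

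Regions at gene ends and regions away from them differed in shape within the 1179. Gene-end regions were 1760 bp wide at the median against 1194 bp for the others, and 183 of 728 and 47 of 451 reached 2500 bp. Their summits spread over 579 bp against 316 bp. Median folds were 7.26 against 5.87 in the HDAC1-named list, 5.65 against 5.51 in the HDAC2-named list, 4.71 against 4.80 in MBD3, 6.55 against 6.83 in RBBP4 and 5.56 against 6.39 in RBBP7. The HDAC1-named list was thus stronger at gene ends and the RBBP7 list away from them. This was not particular to 5-list regions. In 6-list regions the gene-end and other values were 1910 against 1394 bp in width and 550 against 259 bp in summit spread. Their median folds were 7.42 against 6.48 in the HDAC1-named list and 5.81 against 7.78 in RBBP7. In MBD3 alone the direction was the other, at 6.09 against 5.85. Of the 451, 248 were inside genes, 36 lay within 10 kb of a gene, 82 at 10 to 100 kb and 85 beyond 100 kb.

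Absence of a CHD4-named peak rarely meant that one lay just outside. The nearest CHD4-named peak was 121870 bp away at the median (22 to 6991710). It was within 500 bp of 14 regions, within 1 kb of 19 (1.61%), within 5 kb of 68, within 10 kb of 102 (8.65%) and within 100 kb of 529 (44.9%). These distances were not taken for other merged regions without a CHD4-named peak, so the counts stand without a background. The closest 3 were at Meis2, a TALE homeodomain factor of striatal neurons, at 22 bp, at Arid3a at 49 bp and inside Sox5 at 105 bp. The Meis2 region (chr2:116064423-116076248) was 11826 bp wide and had folds of 7.5 (HDAC1-named), 7 (HDAC2-named), 4.84 (MBD3), 7.24 (RBBP4) and 5.28 (RBBP7). At Sox5 the RBBP7 fold was 14.9, against a median of 5.81 over all 5-list regions in that list. The farthest were inside Morf4l2 on chromosome X at 6991710 bp, at Pcdh10 at 3809442 bp and inside Elavl2 at 3610729 bp. Pcdh10 encodes a protocadherin, and its region held 9 MBD3 peaks, the most of any list in a 5-list region together with RBBP4 at Bahcc1.

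**Figure D3:**
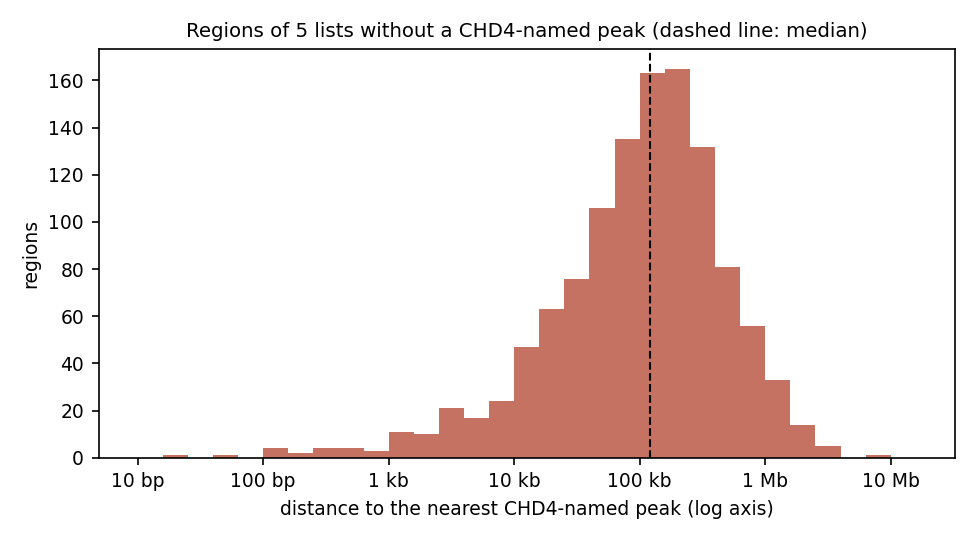
Number of 5-list regions by distance in bp (log axis) to the nearest CHD4-named peak; the dashed line is the median. The median stands at 121870 bp, and 19 of 1179 regions lie within 1 kb.

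The 10 gene-end regions that ranked highest in all 5 lists were taken by their worst rank over the lists, as a share of the 1179. First came a region at an end of both Rdh10, which makes retinal for retinoic acid synthesis, and the ribosomal protein gene Rpl7 (chr1:16103648-16106582). Its folds were 11.3 (HDAC1-named), 9.24 (HDAC2-named), 7.89 (MBD3), 10.7 (RBBP4) and 10.2 (RBBP7), and its worst rank was at 9.41%. Helt, a bHLH repressor that directs GABAergic fate in the mouse midbrain, came second at 16.7%, with folds of 9.53, 11.5, 7.89, 10.8 and 11 in the same order over a region of 6578 bp. Rcc2, which acts in mitosis, had folds of 16.7, 7.84, 9.60, 8.94 and 8.14. Zswim5 had 10.2, 6.71, 9.98, 10.3 and 7.35. Dpf3, a histone-reading subunit of SWI/SNF, had 8.69, 6.96, 7.43, 9.64 and 6.99. Bcl11a, a zinc finger factor of forebrain neurons, had 12.6, 8.18, 8.15, 7.92 and 10.8 over 9932 bp. The remaining 4 were Leprotl1, Khdc4 (a KH-domain RNA-binding protein), Zfp568 (a KRAB zinc finger repressor) and Zfand5, with worst ranks of 25.8% to 30.1%. Every one of the 10 had folds of at least 5.99 in all 5 lists.

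Away from gene ends the 10 highest ranked regions included the highest MBD3 value. The region inside Map4, a microtubule-binding protein gene, reached 30.8 in MBD3, the highest in that list over all 5-list regions, whose median was 4.71. The region inside Dazap1, an RNA-binding protein gene, reached 20.3. Arhgef33, a guanine nucleotide exchange factor gene, ranked first at 16.2%, and its 583 bp region at chr17:80356055-80356637 had folds of 10.8 (HDAC1-named), 8.68 (HDAC2-named), 9.58 (MBD3), 9.06 (RBBP4) and 10.9 (RBBP7). A region inside Mocos on chromosome 18 had 9.31, 16.5, 15.8, 19.7 and 13.8 in that order. A region 52215 bp from Tmem161b had 9.06, 11, 9.66, 18.3 and 15.9. The others lay inside Stox2, Cyp4x1, Sbk1 and Elavl2 and 42855 bp from Mpped2, with worst ranks of 21.9% to 27.6%. Elavl2 encodes a neuronal RNA-binding protein, and its region held Mir6402. The regions inside Map4, Dazap1 and Elavl2 and the one nearest to Mpped2 lay within 1 kb of a start in the promoter table.

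Most genes were nearest to a single 5-list region. Of the genes named as nearest, 1032 had 1 region, 58 had 2, 6 had 3, 2 had 4 and 1 had 5. Zfp608, a zinc finger gene, had 5, of which 1 lay inside it and 4 at 66831 to 498261 bp. Nfia, a nuclear factor I gene of gliogenesis, had 4, of which 3 lay inside it, with RBBP4 folds of 5.26 to 7.08 and RBBP7 folds of 4.65 to 10.5. Tcf4, the E-protein partner of proneural bHLH factors, also had 4, with RBBP4 folds of 3.61 to 12.1. Auts2, Ccny, Foxp4, Meis2, Mpdz and Ndfip2 had 3 each. The 3 Auts2 regions were all inside this long gene away from its ends, and 2 of the 3 Foxp4 regions lay outside the gene at 49684 and 51584 bp.

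At gene ends, 830 of 20953 genes (3.96%) had a 5-list region and 691 (3.30%) a 6-list region, and 5 genes had both. The counts for gene lists below stand beside these shares. The lists were chosen with earlier results of these data known, and no test was made of any list. The counts cover regions within 1 kb of an end only, and 12011 of the 20953 genes had a merged region of any kind there.

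Among 37 transcription factors of the GABAergic lineage, 10 had a 5-list region at an end (27.0%, 15.4 to 43.0) and 7 others a 6-list region (18.9%). The 10 included Dlx2, Sp9, Foxp1, Meis2, Zeb2, Six3, Zfp503 and Etv1. The 7 with a 6-list region were Dlx1, Foxp2, Meis1, Tshz1, Nr2f1, Bcl11b and Sox11. Meis1 also had 5-list regions away from its ends, at 2133 and 128847 bp, the nearer within 1 kb of a start in the promoter table. In the HDAC1-named list the folds at Dlx2 (14.5) and Six3 (10.9) were above the median of 6.67 over all 5-list regions. In the MBD3 list that at Six3 (2.83) was below the median of 4.71. Foxp1, needed by striatal projection neurons, stood above both, with 10.2 in the HDAC1-named list and 9.62 in MBD3. None of the 6 genes of GABA synthesis and transport had either kind of region, and with so few genes the interval for 5-list regions reached 39.0%.

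Among 26 genes of ventricular zone progenitors, 4 had a 5-list region (Sox1, Sox2, Olig1 and Id4) and 6 a 6-list region (among them Hes1, Hes5, Sox21, Fabp7 and Vax1). The Sox2 region spanned 11478 bp and held 7 RBBP4 peaks, with folds of 5.56 to 7.23 over the 5 lists. Of 24 Notch pathway genes, 2 had a 5-list region and 7 a 6-list region. The 2 were Nrarp and Hey1, a Notch target. The receptor Notch1, the ligands Dll1 and Jag1, and the targets Hes1 and Hes5 were at 6-list regions. So were Hes6 and the coactivator Maml3. Of 28 Wnt pathway genes, 5 and 3 had a 5-list and a 6-list region. The 5 were the ligands Wnt7a and Wnt7b, the receptors Fzd1 and Fzd8, and the secreted inhibitor Sfrp2. Of 12 Hedgehog pathway genes the ligand Shh alone had a 5-list region, with folds of 6.07 (HDAC1-named), 5.42 (HDAC2-named), 4.70 (MBD3), 8.94 (RBBP4) and 6.92 (RBBP7), and none had a 6-list region.

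Genes of NuRD itself were among those with such regions. Of 15 subunit genes, Chd3, a remodeller subunit related to CHD4, Rbbp4 and Cdk2ap1 had a 5-list region, and Hdac2, Mbd2 and Mbd3 a 6-list region. At Chd3 the folds were 9.53 (HDAC1-named), 5.61 (HDAC2-named), 8.54 (MBD3), 5.97 (RBBP4) and 5.81 (RBBP7), and at Rbbp4 they were 12.3, 6.16, 3.95, 6.91 and 6.35. Of 27 genes of other repressor complexes, 5 had a 5-list region. They were Ezh2 of PRC2, Ring1 and Bmi1 of PRC1, Rcor1 of the CoREST complex and the Groucho co-repressor Tle1. At Ezh2 the MBD3 fold was 18.4, above that list's median of 4.71, and the RBBP4 fold was 3.41, below that list's median of 6.67. A 6-list region stood at 7 other genes of that list. Among 19 SWI/SNF genes, 3 had a 5-list region (the ATPase genes Smarca2 and Smarca4, and Dpf3) and 2 a 6-list region.

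Among 26 cell cycle genes 3 had a 5-list region, the G1 regulators Ccnd2, Cdk4 and Cdkn1b, and 1 a 6-list region. At Cdkn1b, an inhibitor that stops division, the region spanned 10578 bp and had folds of 13.3 (HDAC1-named), 7.90 (HDAC2-named), 4.59 (MBD3), 11.1 (RBBP4) and 7.56 (RBBP7). Of 24 genes of neuronal differentiation 1 had a 5-list region within 1 kb of an end, Myt1l, and 4 a 6-list region. Away from gene ends, 5-list regions also lay inside Elavl2, Elavl4, Myt1, Rbfox2, Rbfox3 and Gap43 of the same list. Those inside Elavl2, Elavl4 and Myt1 were within 1 kb of a start in the promoter table. Of 28 genes of axon guidance and migration 4 (Plxna2, Epha5, Ephb2 and Ntn1) had a 5-list and 8 a 6-list region.

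Lists for other cell types and for housekeeping functions were counted in the same way. Of 19 genes of cortical glutamatergic neurons, which are made outside the ganglionic eminences, 3 had a 5-list region (Emx1, Emx2 and Lhx2) and 4 a 6-list region. Of 13 oligodendrocyte and astrocyte genes 1 had a 5-list region (Slc1a2) and 0 a 6-list region. None of 14 endothelial and mural or 10 microglial genes had either, but 11 of the 14 and 8 of the 10 had no merged region of any kind at an end, nor did 8 of the 13 oligodendrocyte and astrocyte genes. Of 25 respiratory chain genes 2 had a 5-list region (Ndufs1 and Sdhb) and 2 a 6-list region. Of 85 ribosomal protein genes 2 (Rpl13 and Rpl7) and 1 did, and of 39 proteasome genes 0 and 1.

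**Figure D4:**
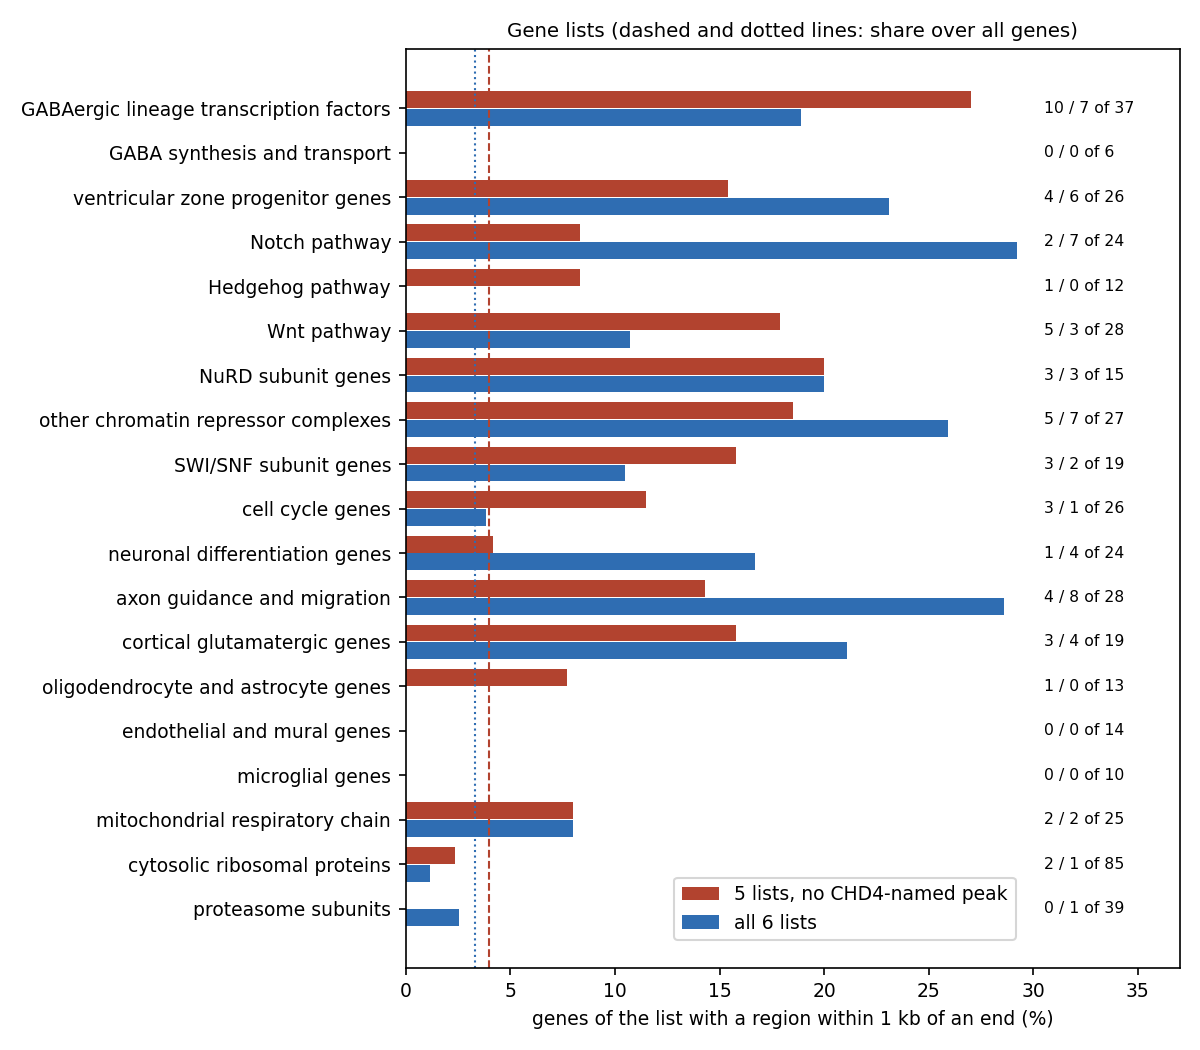
Share of the genes of each list with a 5-list region (red) or a 6-list region (blue) within 1 kb of an end, in percent, with the counts at the right; the dashed and dotted lines mark the shares over all genes, 3.96% and 3.30%. The GABAergic lineage factors stand at 27.0% for 5-list regions, and the endothelial and microglial lists at 0, where 11 of 14 and 8 of 10 genes had no merged region of any kind at an end.

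The promoters in 5-list regions were rich in CpG dinucleotides, with the same median as those in 6-list regions. Of the 32619 promoter windows in the RefSeq table, 908 of 772 genes had their start inside a 5-list region. These windows of 300 bases held 26.0 CpG dinucleotides at the median, against 26.0 in 6-list regions, 23.0 in all merged regions and 7 in all windows. Their GC content was 65.7% at the median, against 66.3%, 63.0% and 53.0% in the same order. At least 15 CpG dinucleotides stood in 83.6% of the 5-list windows, 81.8% of the 6-list windows and 34.9% of all windows. Nrarp, Sp9, Sox1, Dlx2, Helt and Zswim5, printed above, were of this kind, and Zeb2 and Myt1l were among the rest.

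**Figure D5:**
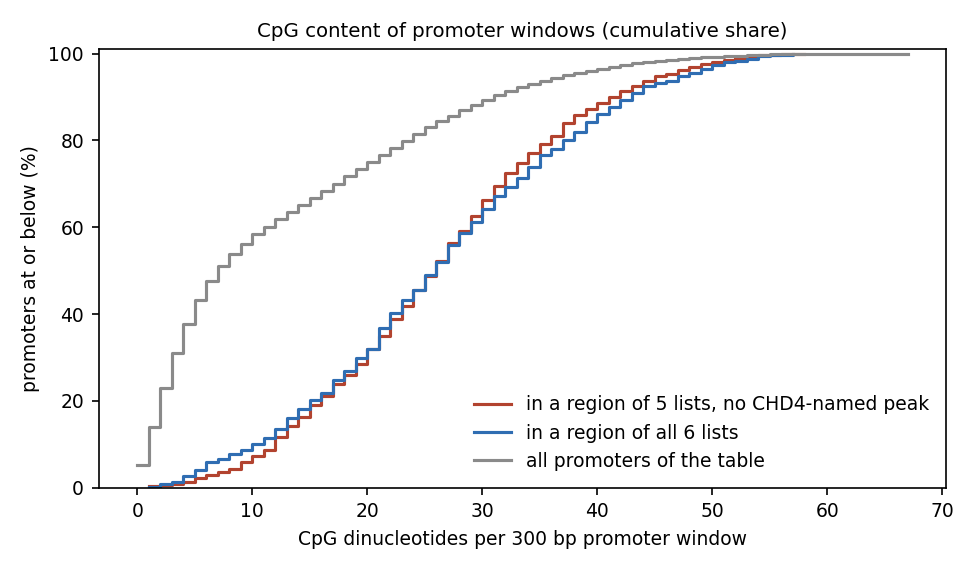
Cumulative share of promoter windows, in percent, with at most the number of CpG dinucleotides on the x axis per 300 bases, for windows in 5-list regions (red), windows in 6-list regions (blue) and all windows of the table (grey). The red and blue lines run together with medians of 26.0, and the grey line has a median of 7.

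Short motifs were searched on both strands of the windows, and their shares are descriptions of letters and not of binding. The homeodomain core TAATTA stood in 21 of 908 windows in 5-list regions (2.31%, 1.52 to 3.51), 1.16% (0.614 to 2.2) of those in 6-list regions, 2.46% of those in all merged regions and 5.25% of all windows. Helt, Elavl4 and Epha5 were among its carriers in 5-list regions. The TATA box letters TATAAA stood in 4.74%, 4.79%, 5.90% and 13.7% in the same order. The ETS core CCGGAA stood in 24.1% (21.4 to 27.0), 19.8% (17.1 to 22.7), 27.7% and 15%. The letters CCAAT stood in 39.3%, 37%, 37% and 37.6%, and the E-box CANNTG in 58.6%, 59.0%, 61.3% and 72.3%. The intervals of 5-list and 6-list windows overlapped for TAATTA and for CCGGAA. Such overlap does not measure a difference of shares, and no interval of the difference was taken for motifs.

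Of 1228 microRNA genes, 10 overlapped a 5-list region, against 13 that overlapped a 6-list region and 121 that overlapped any merged region. Among the 10 were genes of microRNAs with known roles in the nervous system, as was Mir124a-3 among the 13 in 6-list regions. Mir9-3, 1 of the genes of miR-9, which acts in neural progenitors, lay in the 11863 bp region at chr7:79497739-79509601. Mir219a-1, a gene of miR-219, which acts in oligodendrocyte differentiation, lay in the region at Ring1 at chr17:34023908-34025349. The mature sequences are from RefSeq on GRCm38.p6, with the seed (bases 2 to 8) in capitals.
mmu-miR-9-5p: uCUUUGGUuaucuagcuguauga
mmu-miR-9-3p: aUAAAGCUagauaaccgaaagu
mmu-miR-219a-5p: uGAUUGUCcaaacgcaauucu
The 3 seeds differ from each other. The region with Mir9-3 had folds of 12 (HDAC1-named), 4.36 (HDAC2-named), 4.58 (MBD3), 5.94 (RBBP4) and 5.86 (RBBP7), had no base shared by all 5 lists, and lay 8610 bp from a CHD4-named peak. The region with Mir219a-1 had 9.53, 5.23, 11.8, 5.97 and 5.81 and lay 2424 bp from one. Beside Mir9-3 and Mir219a-1 themselves, Gm51285 and Mir219c lie on the opposite strand in the same 2 regions, and the other 6 genes were Mir1901, Mir320, Mir6402, Mir6538, Mir688 and Mir762.

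Chromosome X held few 5-list regions. It had 8 among 719 merged regions (1.11%), against 2.37% to 3.58% of the merged regions of the autosomes, with the lowest autosomal share on chromosome 13 and the highest on chromosome 18. The 6-list regions were also few on X, at 4 of 719 (0.556%), against 2.75% to 5.72% on the autosomes.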

How the data were processed

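Peak lists (ChIP-seq) and region lists (ATAC-seq) were used as the authors deposited them. The submitters' processing notes name BWA, SAMtools 1.10, MACS2 2.2.7.1, Genrich, deepTools and the build mm10, and the sources used here give no settings. The names of the lists say that ChIP peaks were called against input without blacklisted regions. The fold enrichment (a ratio), the −log10 p and the −log10 q of a peak are the authors' values. The score of an accessibility region is its area, which the authors kept from 500 upward. These values describe, rank or filter within a list only. Each accessibility list holds regions more open in the genotype its name puts first.

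Peaks were merged at 1 bp overlap and assigned to the nearest of 20953 protein-coding genes with a curated transcript (RefSeq, GRCm38.p6) by the summit of the highest RBBP4 peak. Starts, promoter windows and microRNAs came from RefSeq tables, and no genome sequence was used. Genes were named by a fixed rule (worst rank over 5 lists, accessibility area, width, distance to a CHD4-named peak, number of regions, gene lists), except Elavl4 and Epha5 as TAATTA carriers and the list genes named for regions away from their ends, chosen after their values were seen. The regions and gene lists were chosen with earlier results of these data known. Some genes that the rule named are not reported here. The merge was tested on simulated peaks. Python 3.11.15, pandas 2.3.3, numpy 2.4.6, scipy 1.17.1 and matplotlib 3.10.9 were used.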

Additional observations from a re-analysis of the deposited data

How the results depend on the processing

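Both differences from 6-list regions kept their direction under all 10 alternatives, each of which was applied to the values it could change, and none reversed. With peaks of −log10 q of at least 10 in all lists, 305 regions met the rule, 50.8% lay at gene ends and 4.26% overlapped chromatin more accessible in Dlx1/2KO, and the differences were 25.2 and −8.52 percentage points. With lists of equal length, 48 regions met it, 52.1% lay at gene ends and the overlap difference was −10.9 points. Of these 48 regions 0 overlapped, which allows up to 6.25% by 3 counts and up to 7.41% by the Wilson interval. Gene ends within 500 bp and 2500 bp gave 58.4% and 66.0%, and starts in their place, an alternative chosen after seeing the data, gave 57.9%. With areas of at least 1000 the overlap was 0.339% and the difference −1.56 points. The causes of these moves were not tested, beyond the smaller number of peaks or regions that each leaves. No paired analysis was possible because each ChIP target has 1 library and the embryos are combined in each accessibility list, which also leaves no replicate to leave out. The rule rests on the absence of a peak in the shortest list, so an unmet threshold and an absent protein cannot be told apart, and the unknown depth limits every count given here.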
